A study of Mus musculus with 26 samples.

Results

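The 9 genes described here code for proteins with which a nerve terminal releases and retrieves synaptic vesicles: Snap25, Stx1a, Vamp2, Syt1, Cplx1, Syp, Syn1, Syn2 and Dnm1. They were chosen by name, and all 9 were found by their Ensembl identifiers among the 27502 entries of the deposited count table. RNA of nuclei and of cytoplasm had been sequenced from the whole brain of mice, which were 6 to 12 weeks old. Sorted neuron nuclei came from B6.FVB mice with Tg(Snap25-EGfp/Rpl10a)JD362Htz/J, sorted astrocyte nuclei from B6.FVB mice with Tg(Aldh1L1-EGfp/Rpl10a)JD130Htz/J and sorted oligodendrocyte nuclei from B6.FVB mice with Tg(Cnp-EGfp/Rpl10a)JD368Htz/J. The 3 lines share a transgene that fuses green fluorescent protein to the ribosomal protein Rpl10a, and differ in the gene whose regulatory sequence drives it. Presort nuclei, the mixture present before sorting, were sequenced from each line as well. Each of these 6 nuclear groups held 4 libraries, of 2 female and 2 male mice, with a single mouse to a library. By the series' design text the presort RNA came from the same mice that were sorted. The last group held 2 libraries of whole-brain cytoplasm, 1 from a male of the Aldh1L1 line and 1 from a female of the Cnp line. Snap25 is therefore both a gene measured here and the driver that marks the neuron line.

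A synaptic vesicle fuses with the terminal membrane when Vamp2 on the vesicle zips together with Snap25 and Stx1a on the plasma membrane into a SNARE complex. Syt1 senses the calcium that triggers fusion, and Cplx1 binds the assembled complex. Syp is an abundant protein of the vesicle membrane, the synapsins Syn1 and Syn2 hold vesicles in a reserve near the release site, and Dnm1 pinches off the membrane that is taken back. All of these proteins act in the axon terminal and are made from RNA that has left the nucleus. They are standard markers of neurons, and glia also carry SNARE proteins and dynamins for their general membrane traffic.

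Levels are given as CPM, a gene's count divided by its library's total count, multiplied by 1000000 and corrected by the trimmed mean of M values (TMM). Sorted libraries held between 134357 and 3239445 counts, presort libraries between 147826 and 3274488, and the cytoplasmic libraries 4461568 and 3885312. A pair of sorted libraries stood apart: astrocyte 30 by its depth of 134357 counts, and oligodendrocyte 36 by its 7674 detected genes, against 11136 to 16575 in the other 11 sorted libraries. The sum of 20 astrocyte markers was between 27840 and 49100 CPM in sorted astrocyte nuclei, against at most 3518 CPM in the other sorted groups. Of 20 oligodendrocyte markers the sum was between 47967 and 66859 CPM in sorted oligodendrocyte nuclei, against at most 2377 CPM elsewhere among sorted nuclei. The sum of 25 pan-neuronal markers was between 9959 and 13580 CPM in sorted neuron nuclei, between 3275 and 4099 CPM in sorted astrocyte nuclei and between 2848 and 5065 CPM in sorted oligodendrocyte nuclei, and none of the 25 was at 0 in every library of a glial group. Sorted astrocyte and oligodendrocyte nuclei thus also held RNA of these genes, not all of which passed as higher in neurons (given below). In RNA pooled from many nuclei, a few nuclei with much of an RNA cannot be told apart from many nuclei with little of it.

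The promoters of Syt1, Syp and Dnm1 are shown because these genes passed the test in both comparisons of neuron with glial nuclei described below, and that of Syn1 because it alone held the 2 rarer motifs searched. The sequences are RefSeq's for GRCm38.p6 and run from 250 bases before to 50 bases after the start site, on the strand of the gene, and they lie at chr10:109010926-109011225 (minus strand), chrX:7638330-7638629 (plus strand), chr2:32353280-32353579 (minus strand) and chrX:20920869-20921168 (minus strand). RefSeq's table held a promoter for 7 of the 9 genes, all but Snap25 and Vamp2. Capitals mark matches, on either strand, to the GC box GGGCGG, the CCAAT box CCAAT, the cyclic AMP response element TGACGTCA and the left arm of the RE1 element, TCAGCACC, which is part of the site of the repressor REST.
Syt1: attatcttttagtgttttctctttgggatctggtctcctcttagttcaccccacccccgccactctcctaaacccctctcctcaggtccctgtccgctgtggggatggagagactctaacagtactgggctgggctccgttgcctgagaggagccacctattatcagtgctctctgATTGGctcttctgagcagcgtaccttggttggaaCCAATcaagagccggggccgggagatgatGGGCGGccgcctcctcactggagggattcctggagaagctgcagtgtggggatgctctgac
Syp: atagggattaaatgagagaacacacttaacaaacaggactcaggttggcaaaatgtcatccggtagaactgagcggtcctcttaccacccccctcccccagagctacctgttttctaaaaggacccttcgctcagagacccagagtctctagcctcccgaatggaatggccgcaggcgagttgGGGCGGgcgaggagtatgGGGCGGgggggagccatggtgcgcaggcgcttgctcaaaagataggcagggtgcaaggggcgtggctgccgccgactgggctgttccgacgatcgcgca
Dnm1: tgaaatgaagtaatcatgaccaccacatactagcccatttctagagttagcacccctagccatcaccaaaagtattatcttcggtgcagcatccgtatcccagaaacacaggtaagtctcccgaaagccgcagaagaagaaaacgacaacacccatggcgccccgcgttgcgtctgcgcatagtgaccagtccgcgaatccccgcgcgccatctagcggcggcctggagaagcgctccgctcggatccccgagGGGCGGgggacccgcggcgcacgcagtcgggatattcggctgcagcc
Syn1: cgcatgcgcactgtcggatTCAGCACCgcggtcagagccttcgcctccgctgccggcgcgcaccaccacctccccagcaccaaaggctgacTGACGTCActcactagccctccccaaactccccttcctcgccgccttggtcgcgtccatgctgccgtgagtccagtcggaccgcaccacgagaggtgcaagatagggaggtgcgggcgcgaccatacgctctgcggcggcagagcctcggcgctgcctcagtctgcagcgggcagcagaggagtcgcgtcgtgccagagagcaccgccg
The GC box stood in 35.7% and the CCAAT box in 37.4% of all 32851 promoters of the table. The left arm of RE1 stood in 1.65% and the cyclic AMP response element in 1.79% of them. In the Syn1 promoter the left arm of RE1 began 231 bases and the cyclic AMP response element 159 bases before the start site. Syt1 had a GC box and a pair of CCAAT boxes, one on each strand, Syp had 2 GC boxes and Dnm1 had 1. RefSeq lists another Syt1 promoter, not shown, with its start site 1871 bases from the GENCODE start of the gene. It matched none of the motifs.

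The genes differ widely in size and in how much of them is exon, by the GENCODE annotation of GRCm38. Syt1 spans 513 kb of chromosome 10 with exons in 1.62% of it, whereas Vamp2 spans 3.90 kb of chromosome 11 with exons in 97.8% of it. Syp and Syn1 lie on chromosome X and span 14.8 kb and 60.5 kb. Levels are compared between genes per kilobase of exon. Whether reads in introns were counted is not given in the sources used here, and if they were, exon length is not the right divisor. The order of the genes, and its change between nuclei and cytoplasm, may depend on this. Exons of Syp share 875 bases with the antisense gene Gm14703, which has no entry in the count table. Those of Syn2 share 90 bases with Timp4 and those of Syn1 share 9 bases with Araf. Since the library kit keeps no strand, reads from these stretches cannot be assigned to one partner. Timp1 also overlaps Syn1, and Ciz1 overlaps Dnm1, without shared exon bases, which matters if intron reads were counted.

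Per kilobase of exon, the order of the 9 genes in sorted neuron nuclei was led by Syt1, at 394 ± 78.3 CPM per kb, and Syp, at 218 ± 95.5 (SD, n = 4). Snap25 followed at 146 ± 41.2 and Dnm1 at 118 ± 76.6. Syp, Snap25 and Dnm1 overlapped with their neighbours in this order within 1 SD, and Syt1 lay above Syp by more than that. The other genes were lower, with overlapping spreads except for Stx1a: Syn1 at 26.3 ± 10.9, Cplx1 at 21.8 ± 3.79, Vamp2 at 19.0 ± 6.17, Syn2 at 17.8 ± 2.32 and Stx1a at 3.90 ± 1.68 CPM per kb. In cytoplasm the order was another one, with Snap25 first at 1348 ± 1151 CPM per kb, then Cplx1 at 336 ± 103 and Dnm1 at 285 ± 93.9, while Syp at 121 ± 71.8 and Syt1 at 118 ± 5.47 came after Vamp2 and Syn1 (SD, n = 2). The 9 genes together took between 0.567% and 0.696% of all counts in sorted neuron nuclei, between 0.0540% and 0.0925% in sorted astrocyte nuclei and between 0.0766% and 0.153% in sorted oligodendrocyte nuclei. Their share lay between 0.289% and 0.502% in presort nuclei and was 1.52% and 0.976% in the 2 cytoplasmic libraries.

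**Figure D1:**
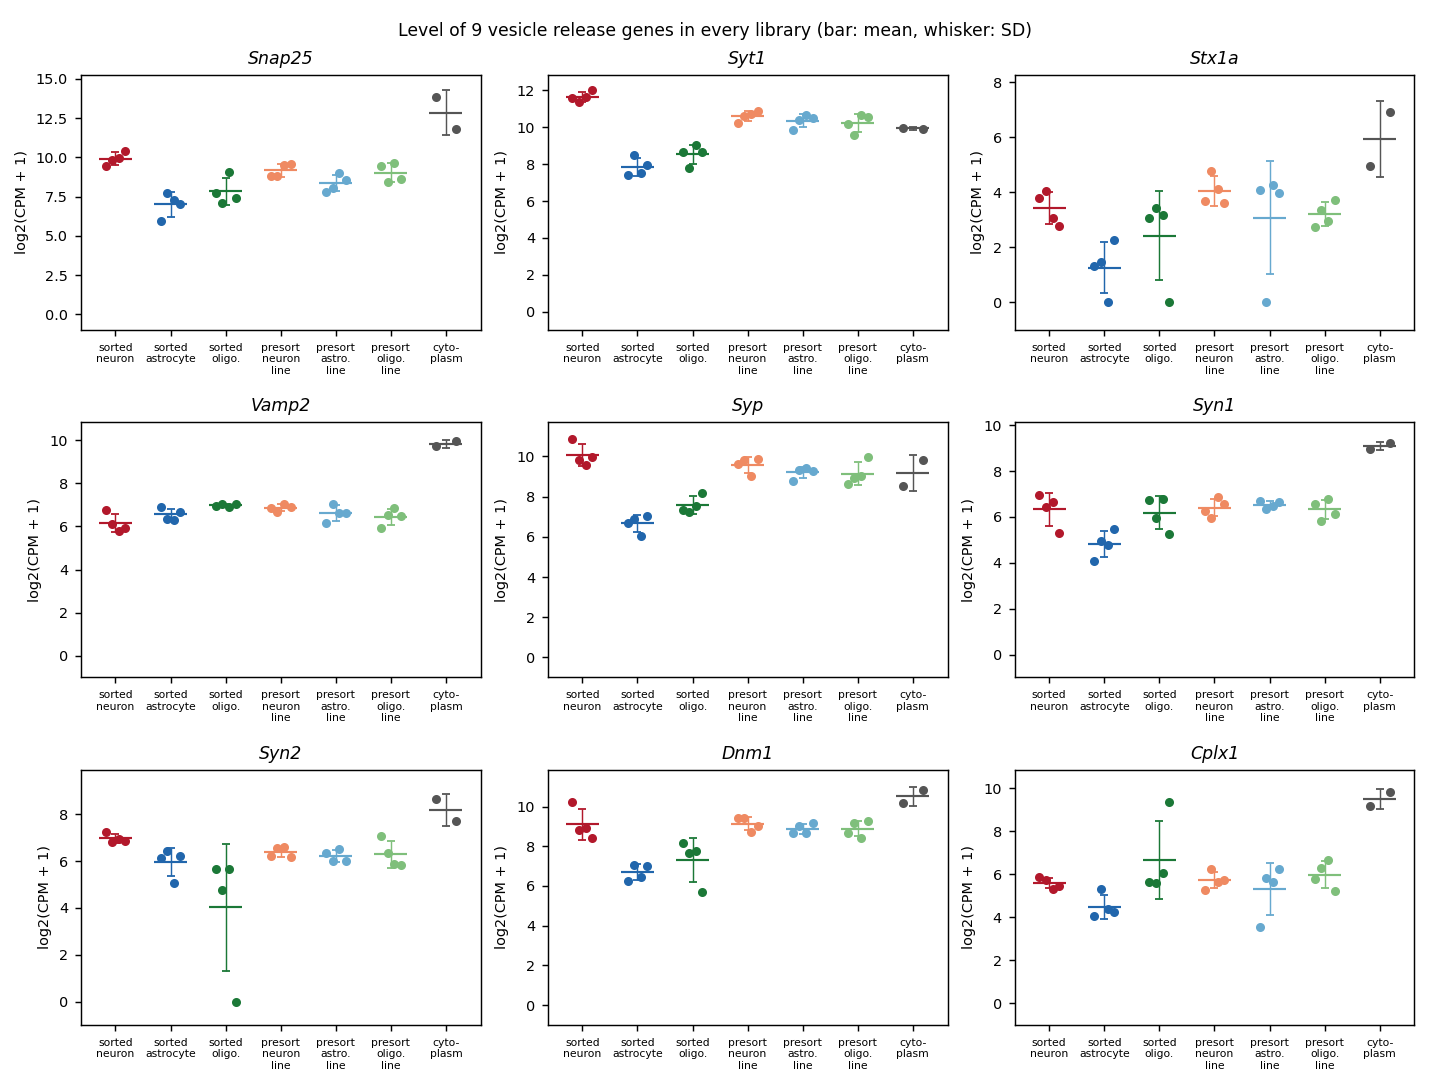
Level of each of the 9 genes in every library, as log2(CPM + 1) on the vertical axis, for sorted neuron, astrocyte and oligodendrocyte nuclei, presort nuclei of the 3 lines (4 libraries each) and cytoplasm (2 libraries). Each point is a library, the bar is the mean and the whisker the SD of the log2 values. Syt1 and Syp peak in sorted neuron nuclei, whereas Vamp2 and Syn1 peak in cytoplasm and Cplx1 is high in a single sorted oligodendrocyte library, at 661 CPM.

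Among sorted nuclei, 5 of the 9 genes were higher in neurons than in astrocytes, from 2.93-fold (Syn1) to 13.3-fold (Syt1), and none was lower. Across all 13029 genes tested, 8.02% were higher and 11.4% lower in neurons (edgeR's quasi-likelihood test, adjusted p below 0.05). Against oligodendrocytes, 4 of the 9 were higher in neurons, where 10.7% of all genes were higher and 12.4% lower. Of 25 pan-neuronal markers, 10 were higher in neurons than in astrocytes (19 without oligodendrocyte 36) and 11 higher than in oligodendrocytes, and none was lower. Markers of cerebellar granule cells passed as higher for 8 of 11 over astrocytes and 11 of 11 over oligodendrocytes. Their sum was between 9141 and 23243 CPM in sorted neuron nuclei, the highest in neuron 2, against 951 to 1285 CPM in sorted astrocyte nuclei and 587 to 877 CPM in sorted oligodendrocyte nuclei, and their part in these comparisons was not tested. Scaled by library size alone, the calls of all genes against oligodendrocytes split into 1614 higher and 1132 lower, and with DESeq2 into 2288 higher and 1731 lower, against 1395 and 1610 here. Both comparisons use the same neuron libraries. The median log2 fold change of the 9 genes was 2.19 over astrocytes and 1.78 over oligodendrocytes, beside 0.05 and 0.16 for all genes tested. The values of the 4 neuron and 4 astrocyte libraries did not overlap for 7 genes, all higher in neurons, a pattern that 17.5% of all genes showed. Neuron and oligodendrocyte libraries did not overlap for 5 genes that were higher in neurons, as for 17.8% of all genes. The p-values rest on the spread between libraries, each of a single mouse, which also holds differences from the preparation of each library.

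Of the plasma membrane SNAREs, Snap25 had 698, 904, 987 and 1367 CPM in sorted neuron nuclei, against 59.3, 215, 157 and 128 CPM in sorted astrocyte nuclei and 209, 138, 545 and 169 CPM in sorted oligodendrocyte nuclei. Every neuron library lay above every glial one, at a log2 fold change of 2.79 ± 0.50 over astrocytes (with its SE, adjusted p = 0.000771) and 1.94 ± 0.48 over oligodendrocytes (adjusted p = 0.00787). Stx1a, its partner in the plasma membrane, was the least abundant of the 9. It had between 5.88 and 15.4 CPM in sorted neuron nuclei, between 0 and 3.77 CPM in sorted astrocyte nuclei and between 0 and 9.78 CPM in sorted oligodendrocyte nuclei, the value of 0 coming from astrocyte 30, where 3 counts amount to 19.7 CPM, and from oligodendrocyte 36, where they amount to 3.43 CPM. Its log2 fold change of 2.19 ± 0.78 over astrocytes missed the threshold (adjusted p = 0.0607), and that over oligodendrocytes was 0.72 ± 0.68 (adjusted p = 0.498).

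Vamp2, the vesicle SNARE, had a lower mean in neurons than in either glial type. It had 106, 68.1, 54.3 and 59.9 CPM in sorted neuron nuclei, against 118, 80.1, 78.7 and 99.5 CPM in sorted astrocyte nuclei and 122, 130, 118 and 129 CPM in sorted oligodendrocyte nuclei. The oligodendrocyte values lay above every neuron value, and astrocyte and neuron values overlapped. Scaled by library size alone, oligodendrocyte values ran from 70.5 to 102 CPM and neuron values from 54.4 to 99.5 CPM, and these overlapped too. Neither difference passed, at -0.42 ± 0.39 over astrocytes (adjusted p = 0.563) and -0.75 ± 0.39 over oligodendrocytes (adjusted p = 0.185). Groups did not overlap in the lower direction for 10.5% of all genes in the comparison with oligodendrocytes.

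Syt1, the calcium sensor, showed the widest gap. It had 3093, 2635, 3235 and 4190 CPM in sorted neuron nuclei, against 171, 362, 184 and 252 CPM in sorted astrocyte nuclei and 399, 221, 529 and 399 CPM in sorted oligodendrocyte nuclei. The lowest neuron value was several times the highest glial one, and the log2 fold change was 3.73 ± 0.36 over astrocytes (adjusted p = 4.78e-06) and 3.13 ± 0.35 over oligodendrocytes (adjusted p = 1.08e-05). Cplx1, which binds the SNARE complex, behaved differently. It had 56.8, 52.4, 38.9 and 42.7 CPM in sorted neuron nuclei and 15.8, 38.5, 19.7 and 17.7 CPM in sorted astrocyte nuclei, a log2 fold change of 1.03 ± 0.77 that did not pass (adjusted p = 0.447). In sorted oligodendrocyte nuclei it had 49.3, 47.1 and 65.4 CPM in replicates 10, 12 and 34, and 661 CPM in replicate 36. The log2 fold change of neurons over oligodendrocytes was -2.07 ± 0.76 (adjusted p = 0.0590), and -0.13 without oligodendrocyte 36 (adjusted p = 0.793).

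Syp, the vesicle membrane protein, had 1869, 907, 771 and 996 CPM in sorted neuron nuclei, against 101, 117, 65.6 and 132 CPM in sorted astrocyte nuclei and 159, 147, 187 and 293 CPM in sorted oligodendrocyte nuclei. Neuron libraries were all above glial ones, and the log2 fold change was 3.41 ± 0.41 over astrocytes (adjusted p = 2.74e-05) and 2.57 ± 0.39 over oligodendrocytes (adjusted p = 0.000182). The synapsins were less distinct. Syn1 had between 38.4 and 124 CPM in sorted neuron nuclei, between 15.8 and 44.1 CPM in sorted astrocyte nuclei and between 37.7 and 108 CPM in sorted oligodendrocyte nuclei. Its log2 fold change of 1.55 ± 0.53 over astrocytes just passed (adjusted p = 0.0499), and it missed the threshold when any one of 10 of the 12 sorted libraries was left out, at adjusted p-values between 0.0521 and 0.166. Over oligodendrocytes it was 0.20 ± 0.50 (adjusted p = 0.819).

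Syn2 had 149, 112, 124 and 116 CPM in sorted neuron nuclei, against 69.7, 85.9, 32.8 and 72.4 CPM in sorted astrocyte nuclei and 49.7, 26.3, 50.3 and 0 CPM in sorted oligodendrocyte nuclei. The neuron values lay above all glial ones, with log2 fold changes of 0.89 ± 0.70 over astrocytes (adjusted p = 0.478) and 2.02 ± 0.72 over oligodendrocytes (adjusted p = 0.0529). The value of 0 belongs to oligodendrocyte 36, and without it the log2 fold change over oligodendrocytes was 1.61 and passed (adjusted p = 0.000626). Dnm1, the dynamin of vesicle retrieval, had 1216, 445, 486 and 336 CPM in sorted neuron nuclei, against 74.7, 131, 85.3 and 129 CPM in sorted astrocyte nuclei and 284, 202, 215 and 50.3 CPM in sorted oligodendrocyte nuclei. Neuron values exceeded glial ones in all libraries, with log2 fold changes of 2.53 ± 0.53 over astrocytes (adjusted p = 0.00238) and 1.78 ± 0.51 over oligodendrocytes (adjusted p = 0.0180). Without neuron 2, the highest library, the second value was 1.25 and missed the threshold (adjusted p = 0.0826).

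The level left in glial nuclei thus ran over a wide range. Sorted astrocyte nuclei held 7.36% of the mean neuron level of Syt1, 9.14% of that of Syp, 14.1% of that of Snap25, 16.9% of those of Dnm1 and Stx1a and 33.5% of that of Syn1, but 48.1% for Cplx1, 52.0% for Syn2 and 130% for Vamp2. Sorted oligodendrocyte nuclei held 11.8% for Syt1, 17.3% for Syp, 25.2% for Syn2, 26.8% for Snap25 and 30.2% for Dnm1, but 60.4% for Stx1a, 90.2% for Syn1, 173% for Vamp2 and 431% for Cplx1. Without oligodendrocyte 36 these last 4 shares were 80.5%, 106%, 171% and 113%. The pan-neuronal markers given above also remained in the glial nuclei, and their part in these levels was not tested.

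Between the glial types, Cplx1 was lower in astrocytes than in oligodendrocytes, at a log2 fold change of -3.10 ± 0.81 (adjusted p = 0.0130), and the other 8 genes did not pass. Of all genes tested, 9.62% were higher and 7.49% lower in astrocytes. Without oligodendrocyte 36 the value for Cplx1 was -1.15 (adjusted p = 0.0210), without astrocyte 6 or astrocyte 32 it did not pass (adjusted p = 0.0531 and 0.05004), and without oligodendrocyte 36 Stx1a, Syn1 and Dnm1 were also lower in astrocytes, at -1.80, -1.57 and -1.07. Over all genes the calls ranged from 1705 to 3568 in the fits that left out a single library, against 2230 with all libraries. Values of the 2 glial types did not overlap for Syp, Vamp2 and Cplx1, all lower in astrocytes, which 8.27% of all genes showed. For Vamp2 the highest astrocyte value was 117.7 CPM and the lowest oligodendrocyte value 117.9 CPM. With scaling by library size alone the Vamp2 values of the 2 types overlapped.

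Leaving out oligodendrocyte 36 also moved the comparison of neurons with astrocytes, since the 12 sorted libraries share 1 estimate of the spread. Without it, 8 of the 9 genes were higher in neurons than in astrocytes, all but Vamp2, with Stx1a at 2.16, Cplx1 at 1.01 and Syn2 at 0.85 passing in addition. The same 8 genes passed when only the 8 libraries of the 2 groups entered the fit. Calls over all genes rose too, from 2534 to as many as 5096 in the fits that left out a single library. They also rose in the fit of the 8 libraries. Sex coincides with the block of library numbers, so the comparisons were repeated within each sex. In males, 6 of the 9 genes were higher in neurons than in astrocytes and 5 were higher than in oligodendrocytes, with Syt1 at 3.46 and 3.27. In females, whose libraries include astrocyte 30 and oligodendrocyte 36, only Syt1 passed, at 3.97 over astrocytes (adjusted p = 0.0340) and 3.002 over oligodendrocytes (adjusted p = 0.0476), while Snap25 had 2.91 and 1.73, Syp 3.04 and 1.88 and Dnm1 1.82 and 1.63 without passing. None of the 9 genes differed between the sexes over the 12 sorted libraries with cell type in the fit, by edgeR's test (0.0461% of all genes did), and none had an unadjusted p below 0.05.

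**Figure D2:**
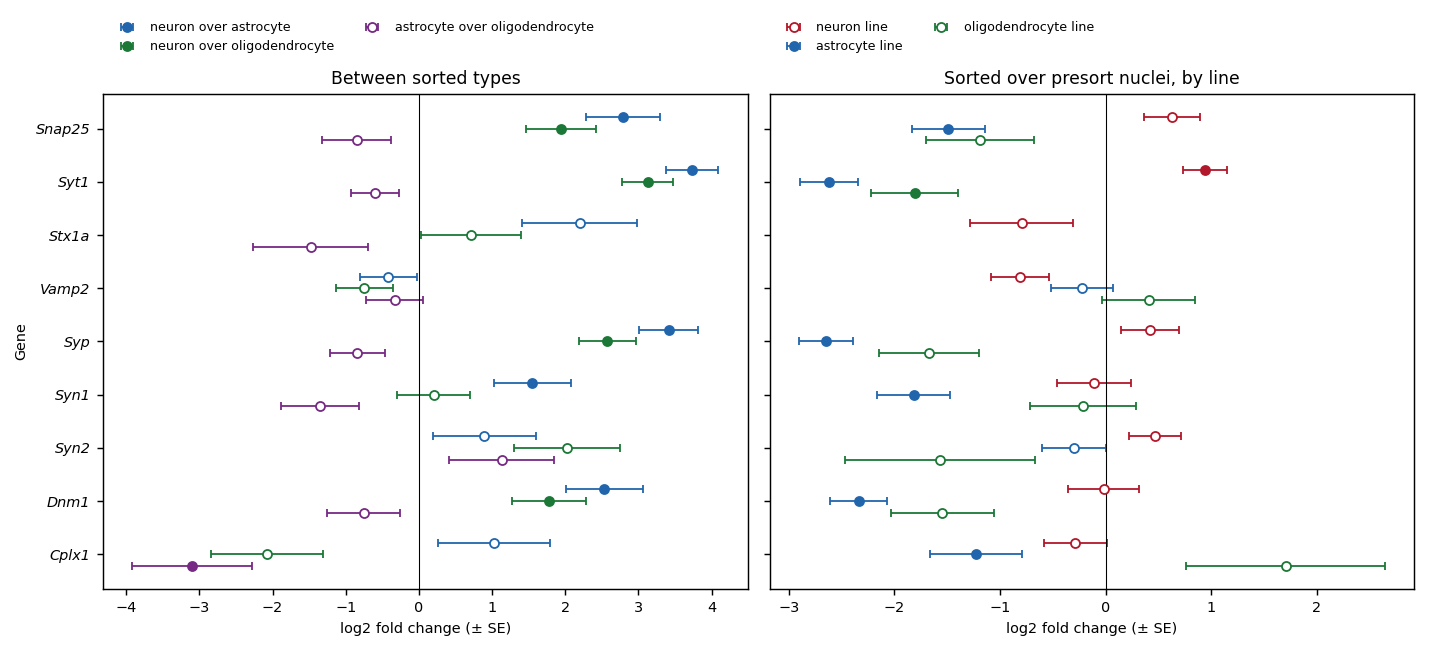
Log2 fold change with its SE for each of the 9 genes between sorted types (left) and of sorted over presort nuclei within each line (right). Filled points passed an adjusted p of 0.05 and open points did not. Syt1, Syp, Snap25 and Dnm1 lie to the right in both neuron comparisons and to the left in the astrocyte line, whereas the points of Vamp2 lie between -0.81 and 0.41. Stx1a was below the count filter in the astrocyte and oligodendrocyte lines.

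Each sort was also compared with the presort nuclei of its own line, which asks whose RNA the sort enriched or depleted. These comparisons share the sorted libraries with those above. The titles number a presort library and a sorted one of the same line and sex consecutively, and a fit with each such pair as a block for its mouse was added after the data were seen. In the neuron line, Syt1 was higher in sorted than in presort nuclei and the other 8 genes did not pass without the block, while Snap25 was also higher and Vamp2 lower with it. Its levels were 3093, 2635, 3235 and 4190 CPM in sorted neuron nuclei, against 1190, 1548, 1699 and 1885 CPM in presort nuclei. The groups did not overlap, as for Syn2 and for 9.27% of all genes in this direction. The log2 fold change was 0.94 ± 0.21 (adjusted p = 0.0128), where 1.27% of all 11024 genes were higher and 5.10% lower. These 140 higher and 562 lower genes became 546 and 904 with the mouse as a block. None of the 25 pan-neuronal markers passed in this comparison by edgeR's test, and with the block 3 were higher and 1 lower. Without neuron 28 the value for Syt1 was 0.75 and did not pass (adjusted p = 0.0651), and it was 0.93 in males (adjusted p = 0.320) and 0.95 in females (adjusted p = 0.00789). Snap25, whose regulatory sequence marks this line, had 698, 904, 987 and 1367 CPM in sorted nuclei, against 454, 439, 720 and 755 CPM in presort nuclei, a log2 fold change of 0.63 ± 0.26 that did not pass (adjusted p = 0.191). It was higher in the sorted library of 4 of 4 pairs, and with the mouse as a block the value was 0.63 ± 0.16 and passed (adjusted p = 0.0154). Without neuron 2, Snap25 passed at 0.71 (adjusted p = 0.0437) and so did Vamp2, at -1.10 (adjusted p = 0.00834), whose value with all libraries was -0.81 ± 0.28 (adjusted p = 0.101). Vamp2 was lower in the sorted library of 4 of 4 pairs, at -0.84 ± 0.24 with the mouse as a block (adjusted p = 0.0311).

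In the astrocyte line, 6 of the 8 genes tested were lower in sorted than in presort nuclei, beside 15.2% of all 11026 genes lower and 13.7% higher (1679 and 1514 genes, against 2183 lower and 1165 higher with scaling by library size alone). Of the 25 pan-neuronal markers, 20 were lower and none higher. Syp had 101, 117, 65.6 and 132 CPM in sorted astrocyte nuclei, against 445, 638, 682 and 616 CPM in presort nuclei. The groups did not overlap, at a log2 fold change of -2.64 ± 0.26 (adjusted p = 2.50e-07). Syt1 fell by 2.62 ± 0.28 (adjusted p = 5.45e-07), Dnm1 by 2.34 ± 0.27 (adjusted p = 1.56e-06), Syn1 by 1.82 ± 0.34 (adjusted p = 0.000339) and Snap25 by 1.49 ± 0.35 (adjusted p = 0.00215) on the log2 scale. For these 5 genes sorted and presort values did not overlap, as for 12.5% of all genes in this direction. Cplx1 fell by 1.23 ± 0.43 (adjusted p = 0.0378) with overlapping groups, and lost its call without any one of astrocyte 6, 30 or 32 or presort 7 or 31 (adjusted p between 0.0756 and 0.129), and with the mouse as a block (-1.18, adjusted p = 0.0576). Vamp2 had 118, 80.1, 78.7 and 99.5 CPM in sorted astrocyte nuclei, against 69.7, 132, 96.1 and 95.9 CPM in presort nuclei. It did not pass, at -0.22 ± 0.29 (adjusted p = 0.659), and neither did Syn2, at -0.30 ± 0.30 (adjusted p = 0.540). Stx1a was below the count filter, with 1.48, 1.79, 0 and 3.77 CPM in sorted astrocyte nuclei, against 0 CPM in presort 7 and at least 14.8 CPM in the other 3 presort libraries. Without the filter it was lower in sorted nuclei, at a log2 fold change of -2.66 ± 0.68 (adjusted p = 0.00261), and within females it passed the filter and the test, at -2.46 (adjusted p = 0.0240). Within males Syp, Syt1, Dnm1 and Syn1 passed, at -2.49, -2.29, -2.36 and -2.15, and within females Snap25 and Cplx1 also did, at -1.77 and -1.83.

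In the oligodendrocyte line, only Syt1 was lower in sorted than in presort nuclei, beside 3.24% of all 9520 genes lower and 5.12% higher. This split of 308 lower and 487 higher genes was 337 and 297 with scaling by library size alone and 938 and 582 with DESeq2, and 59 lower and 222 higher with the mouse as a block. Syt1 had 399, 221, 529 and 399 CPM in sorted oligodendrocyte nuclei, against 1169, 777, 1649 and 1487 CPM in presort nuclei. Its log2 fold change was -1.81 ± 0.41 (adjusted p = 0.0221), and it lost its call without any one of the 4 presort libraries, at values between -1.93 and -1.62 (adjusted p between 0.0505 and 0.106). Without oligodendrocyte 36, the calls over all genes rose from 795 to 2069. In that fit 4 genes passed: Syp at -2.04, Syt1 at -1.90, Dnm1 at -1.24 and Syn2 at -1.16. Those 4 genes had no overlap between sorted and presort values in the full data either, as 11.5% of all genes in this direction. Vamp2 was the reverse, with every sorted value above every presort one (also 11.5% of all genes), at a log2 fold change of 0.41 ± 0.44 that did not pass (adjusted p = 0.668) and turned to -0.16 with scaling by library size alone. Within males 5 genes were lower, and within females none passed, with Syt1 at -1.79 and -1.74.

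The effect of sorting itself differed between lines for 5 of the 9 genes, Snap25, Syt1, Syp, Syn1 and Dnm1, in a joint test of the interaction that 24.5% of all 12171 genes passed. For Syt1 the effect of sorting in the neuron line exceeded that in the astrocyte line by 3.59 ± 0.41 on the log2 scale (adjusted p = 6.50e-07) and that in the oligodendrocyte line by 2.73 ± 0.41 (adjusted p = 1.76e-05). In the pairwise contrasts of sorting effects, 5 of the 9 genes were higher in the neuron than in the astrocyte line (7.01% of all genes were), 3 were higher in the neuron than in the oligodendrocyte line (7.22%) and 2 were lower in the astrocyte than in the oligodendrocyte line (7.01%). Among all genes, the calls for neuron minus oligodendrocyte line split into 879 higher and 1072 lower (1022 and 727 with library size alone), and those for astrocyte minus oligodendrocyte line into 780 higher and 853 lower (808 and 578 with library size alone, 1124 and 803 with DESeq2). Syn1 was the least certain of the 5 in the joint test, with a joint adjusted p of 0.0322, which missed the threshold in 20 of the 24 fits that left out a single library and with the mouse as a block (adjusted p = 0.0521). Among presort nuclei, none of the 8 genes tested differed between lines (edgeR's test, all at an adjusted p of 0.999), and Snap25 alone of them had an unadjusted p below 0.05, at 0.0361. None of all 6049 genes passed either (0.00%), with 205 at an unadjusted p below 0.05.

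The comparison of presort nuclei with cytoplasm used libraries of unsorted brain on both sides. Of the 8 genes tested, 6 were lower in nuclei: Snap25, Cplx1, Vamp2, Syn1, Syn2 and Dnm1. Of all 7728 genes tested, 29.8% were lower and 20.6% higher in nuclei (2306 and 1595 genes, against 1460 lower and 2491 higher with scaling by library size alone). Of the 25 pan-neuronal markers, 20 were lower and 1 higher. For these 6 genes, all 12 nuclear values lay below both cytoplasmic ones, as for 15.7% of all genes. The median log2 fold change of the 8 genes was -2.44, beside -0.10 for all genes tested.

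Snap25 ranged from 225 to 794 CPM over the 12 presort libraries, with a median of 447 CPM, against 14684 and 3630 CPM in cytoplasm. The log2 fold change was -4.35 ± 0.33 (adjusted p = 5.64e-09), the largest fall of the 8. The cytoplasmic values themselves lay far apart, and without cytoplasm 1 the value was -2.95, still past the threshold (adjusted p = 3.67e-07) and smaller than those of Cplx1 and Vamp2. Cplx1 ranged from 10.7 to 99.2 CPM in presort nuclei (median 53.1), against 575 and 895 CPM in cytoplasm, and fell by 3.85 ± 0.31 (adjusted p = 9.97e-09). Vamp2 ranged from 59.3 to 132 CPM in presort nuclei (median 98.3), against 831 and 997 CPM in cytoplasm, and fell by 3.32 ± 0.23 (adjusted p = 2.81e-09). Snap25, Cplx1 and Vamp2 were thus all scarce in nuclei relative to cytoplasm. Syn1 ranged from 56.2 to 115 CPM in presort nuclei (median 91.1), against 503 and 598 CPM in cytoplasm, and fell by 2.81 ± 0.23 (adjusted p = 1.41e-08). Syn2 fell by 2.07 ± 0.28 (adjusted p = 4.33e-06) and Dnm1 by 1.69 ± 0.25 (adjusted p = 1.37e-05).

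Syt1 and Syp did not follow. Syt1 ranged from 777 to 1885 CPM in presort nuclei (median 1480), against 1012 and 947 CPM in cytoplasm, a log2 fold change of 0.36 ± 0.28 (adjusted p = 0.288). Syp ranged from 395 to 1005 CPM in presort nuclei (median 627), against 368 and 897 CPM in cytoplasm, a log2 fold change of -0.09 ± 0.34 (adjusted p = 0.834). Nuclear and cytoplasmic values overlapped for both. Scaling by library size alone moved the median of all genes to 0.45, and with it Syt1 passed at 0.92 (adjusted p = 0.0111), Syp stood at 0.39 (adjusted p = 0.386) and the 6 lower genes stayed lower, between -3.70 and -1.17. Stx1a was below the count filter, and ranged from 0 to 26.5 CPM in presort nuclei (median 11.9), against 30.3 and 119 CPM in cytoplasm. Without the filter its log2 fold change was -2.83 ± 0.47 (adjusted p = 5.90e-05). The 6 genes also passed with only the 8 presort libraries of the lines that gave the cytoplasm, between -4.47 and -1.77. Cerebellar granule cell markers summed to between 4116 and 11888 CPM in presort nuclei, against 2168 and 1528 CPM in cytoplasm, and pan-neuronal markers to between 7132 and 11473 CPM, against 27484 and 20548 CPM, and their part in this comparison was not tested.

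**Figure D3:**
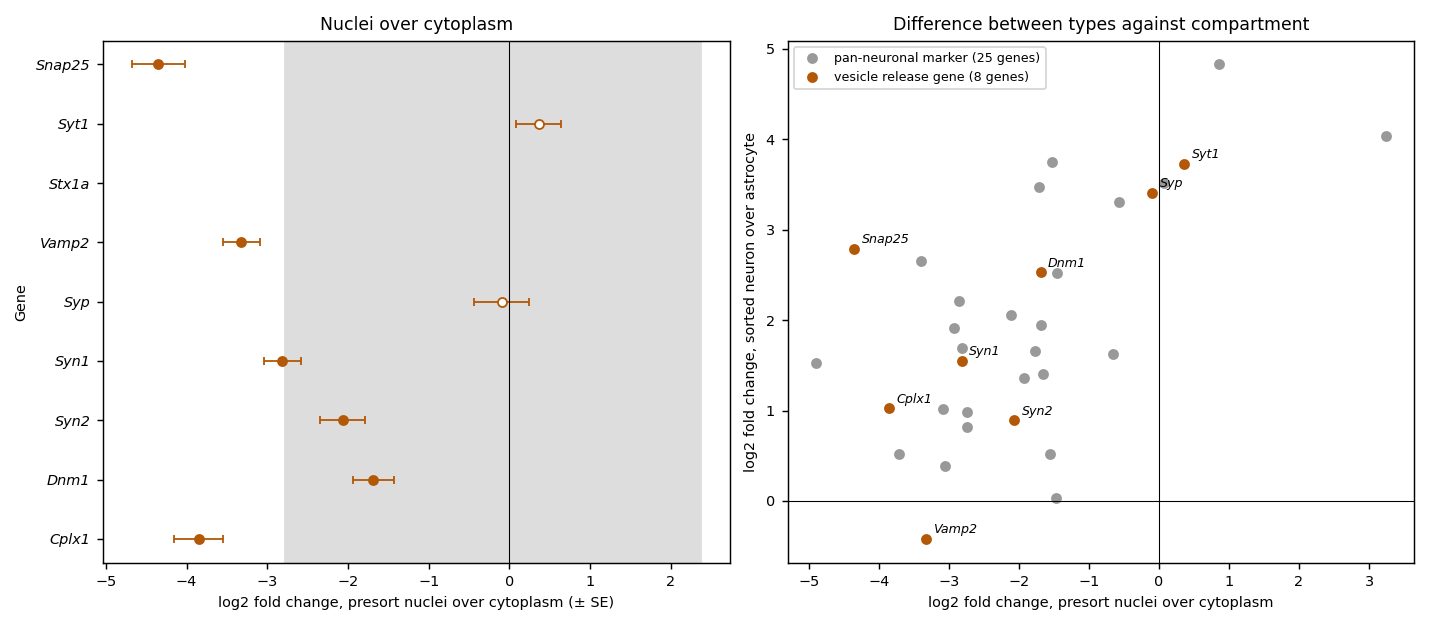
Left, log2 fold change of presort nuclei (12 libraries) over cytoplasm (2 libraries) with its SE for the 8 genes tested, filled where the adjusted p was below 0.05, with the 5th to 95th percentile of all 7728 genes in grey (-2.78 to 2.38). Right, the log2 fold change of sorted neuron over astrocyte nuclei against that of presort nuclei over cytoplasm for these 8 genes and 25 pan-neuronal markers. Syt1 and Syp lie at the upper right, Vamp2 at the lower left, and the values use TMM scaling (library size alone moves Syp to 0.39 on the horizontal axis).

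Syt1 and Syp, which were nearest to parity between nuclei and cytoplasm, also had the widest gaps between neurons and astrocytes. Cplx1 and Vamp2, among the scarcest in nuclei, did not pass between neurons and astrocytes in the fit of all sorted libraries. Cplx1 did pass without oligodendrocyte 36, and its neuron values lay above all astrocyte ones, whereas those of Vamp2 overlapped. Snap25 combined a wide gap between these types with a nuclear level 4.35 below the cytoplasmic one on the log2 scale (2.95 without cytoplasm 1). Across the 8 genes the log2 fold change of nuclei over cytoplasm correlated with that of neurons over astrocytes at Pearson's r = 0.62 and Spearman's rho = 0.52, and with that of neurons over oligodendrocytes at r = 0.69 and rho = 0.71. Over the 25 pan-neuronal markers these r values were 0.62 and 0.50. Across 7707 genes tested in both they were -0.17 and -0.07. These are descriptions across genes, which are not independent replicates. The comparisons share no library, but by the design text the presort and sorted nuclei came from the same mice. Gene length correlated with the log2 fold change of nuclei over cytoplasm at r = 0.36 over the 8 genes (log10 of length) and 0.20 over 7653 genes.

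The wider machinery was described with 5 lists: paralogs of the 9 genes, fusion regulators, active zone scaffolds, vesicle membrane proteins and proteins of vesicle endocytosis, of which 126 of 128 genes were in the table. Active zone scaffolds, which dock vesicles at the release site, were higher in neurons than in astrocytes for 8 of 13 tested genes and lower for none, with a median log2 fold change of 2.14, where 8.02% of all genes were higher and 11.4% lower. Ppfia2, a liprin, had 3.90 ± 0.80 (adjusted p = 0.00210), and Rims1, a scaffold that binds Rab3, had 3.80 ± 0.79 (adjusted p = 0.00245). Fusion regulators were higher for 6 of 25 and lower for none, and vesicle membrane proteins were higher for 10 and lower for 1 of 22. Without oligodendrocyte 36, which enters the shared spread, 13 of 14 scaffolds, 15 of 25 fusion regulators, 16 of 22 vesicle membrane proteins and 17 of 31 paralogs were higher, and without astrocyte 30 or without neuron 2 the vesicle membrane proteins were higher for 6. Sv2b, a glycoprotein of the vesicle, averaged 990 ± 187 CPM in sorted neuron nuclei and 78.6 ± 20.4 CPM in sorted astrocyte nuclei (SD, n = 4 each), a log2 fold change of 3.62 ± 0.45 (adjusted p = 3.66e-05). Slc17a7, the glutamate transporter of vesicles, had 4.19 ± 1.09 (adjusted p = 0.0108). Against oligodendrocytes, active zone scaffolds were again higher in neurons for 8 of 13, fusion regulators for 5 of 25 with 1 lower, vesicle membrane proteins for 6 of 22 with 2 lower and paralogs for 10 of 31 with 5 lower, where 10.7% of all genes were higher and 12.4% lower. Without oligodendrocyte 36 the fusion regulators were higher for 10 and the vesicle membrane proteins for 12. In fits leaving out a single library, calls over all genes reached 5096 over astrocytes and 4807 over oligodendrocytes, against 2534 and 3005 here.

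Paralogs were higher in neurons than in astrocytes for 11 and lower for 2 of 31. Relatives of Syt1 were among the higher ones. Syt4 averaged 823 ± 276 CPM in sorted neuron nuclei and 33.8 ± 16.6 CPM in sorted astrocyte nuclei (SD, n = 4 each), a log2 fold change of 4.62 ± 0.74 (adjusted p = 0.000298), and Syt6 had 3.86 ± 0.86 (adjusted p = 0.00386). Synpr, a relative of Syp, had 3.78 ± 0.82 (adjusted p = 0.00316), whereas Vamp1, the paralog of Vamp2, had -0.83 ± 0.68 (adjusted p = 0.494). Vamp1 was lower in presort nuclei than in cytoplasm, at -2.28 ± 0.30 (adjusted p = 2.85e-06). It was singled out in the comparison of sorted types after its values were seen.

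Against astrocytes, neurons had higher levels of 6 of 29 endocytosis genes (20.7%) and lower levels of 2 (6.90%), beside 8.02% and 11.4% of all genes. Against oligodendrocytes 1 was higher (3.45%) and 7 lower (24.1%) in neurons, beside 10.7% and 12.4%. Without oligodendrocyte 36 these counts were 13 and 4 of 30 over astrocytes and 4 and 9 of 30 over oligodendrocytes. The calls over all genes in fits leaving out a single library are given above. Ston2, an adaptor of vesicle retrieval, averaged 4.34 ± 2.55 CPM in sorted neuron nuclei, against 263 ± 126 CPM in sorted astrocyte nuclei and 292 ± 225 CPM in sorted oligodendrocyte nuclei (SD, n = 4 each), with log2 fold changes of -5.92 ± 0.67 and -6.00 ± 0.67 (adjusted p = 1.68e-05 and 1.03e-05). The phosphatase Synj2 and the membrane-bending protein Bin1 were lower in neurons than in oligodendrocytes, at log2 fold changes of -4.52 ± 0.63 and -3.05 ± 0.48 (adjusted p = 9.07e-05 and 0.000258). Syngr2, a synaptogyrin of many tissues, had 2.70 ± 2.51 CPM in sorted neuron nuclei, against 56.4 ± 39.8 CPM in astrocyte and 134 ± 59.4 CPM in oligodendrocyte nuclei, with log2 fold changes of -4.38 ± 0.83 and -5.56 ± 0.87 (adjusted p = 0.00117 and 0.000237). Dnm3, a paralog of Dnm1, was lower in astrocytes than in oligodendrocytes, at a log2 fold change of -3.85 ± 0.50 (adjusted p = 4.93e-05). In oligodendrocyte 36 Dnm3 stood at 2852 CPM, Ston2 at 625 and Synj2 at 5270 CPM, against at most 824, 230 and 3206 CPM in the other 3 libraries of its group. Without it the log2 fold changes were -3.17 for Dnm3 (astrocytes over oligodendrocytes), -5.32 for Ston2 and -4.16 for Synj2 (neurons over oligodendrocytes), and all passed.

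Against cytoplasm, presort nuclei held less RNA of 19 of 26 endocytosis genes and more of none, and less of 12 and more of 3 of 20 fusion regulators, where 29.8% of all genes were lower and 20.6% higher. Rab3a, a small GTPase of vesicles, had -3.25 ± 0.31 (adjusted p = 5.44e-08), and Napb, which helps to take SNARE complexes apart, had -3.21 ± 0.30 (adjusted p = 4.99e-08). In the other lists the lower share was nearer to that of all genes. Vesicle membrane proteins were lower for 6 and higher for 1 of 19 (31.6% and 5.26%). Paralogs were lower for 8 and higher for 4 of 23 (34.8% and 17.4%), and active zone scaffolds lower for 4 and higher for 4 of 12 (33.3% each). Pclo, a giant scaffold, averaged 1347 ± 223 CPM in presort nuclei (SD, n = 12) and 459 ± 261 CPM in cytoplasm (SD, n = 2), a log2 fold change of 1.41 ± 0.31 (adjusted p = 0.000856), whereas Ppfia3 had -1.57 ± 0.34 (adjusted p = 0.000721).

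**Figure D4:**
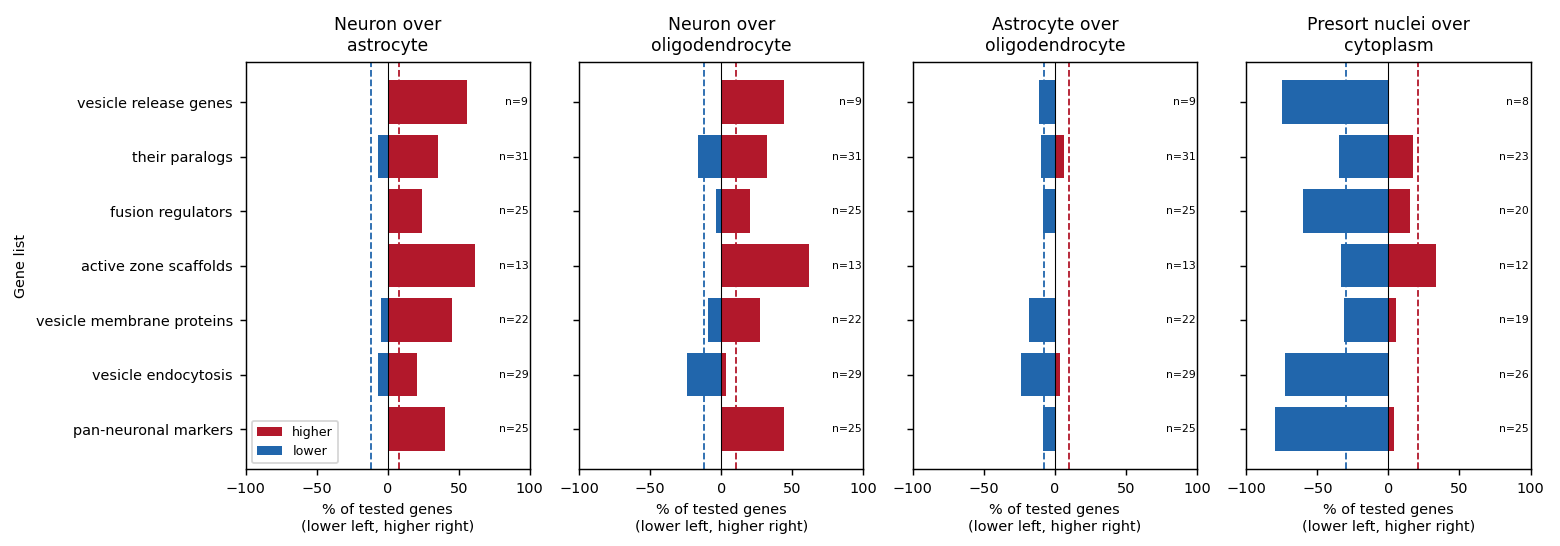
Share of the tested genes of each list that were higher (red, right) or lower (blue, left) in 4 comparisons, at an adjusted p of 0.05, with the number tested beside each bar. Dashed lines mark the same share over all genes tested. Neuron over astrocyte, the 9 vesicle release genes and the active zone scaffolds reach furthest to the right of the lists drawn, at 55.6% and 61.5%, and presort nuclei over cytoplasm, the 8 vesicle release genes and the endocytosis genes extend to the left, at 75.0% and 73.1%, as do the pan-neuronal markers, at 80.0%.

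For 8 of the genes the most similar profiles over the 12 sorted libraries were sought among 9745 other genes by Pearson's r of log2 CPM. The libraries fall into 3 types, so r can reflect differences between types, and it can also reflect a single library that stands apart. Syt1 was closest to Scn2a, a sodium channel, at 0.99, Syp to Chgb, a protein of dense-core vesicles, at 0.98, Dnm1 to Sgsm1 at 0.98 and Snap25 to Unc5d, a netrin receptor, at 0.96. Vamp2 was closest to Sidt2 at 0.92. Stx1a was closest to Tspan17 at 0.98 (0.97 without oligodendrocyte 36) and Syn2 to Ergic1 at 0.99 (0.95 without it). Cplx1 was closest to Ubqln1 at 0.97, which was 0.85 without oligodendrocyte 36.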

How the data were processed

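RNA of brain nuclei and cytoplasm was sequenced in 26 libraries of 7 groups, and the authors deposited whole-number counts per gene for all of them in a single table. Per the labels' protocols, Trizol extraction and DNase treatment were followed by Qiagen MinElute clean-up and NuGEN Ovation V2 amplification, and the submitters' processing notes name Trimmomatic, Bowtie2, STAR, bedtools and edgeR. For the genome build, annotation, counted regions, strand setting and sorting method, each is not given in the sources used here. Amplification without molecular identifiers, and whether intron reads were counted, can both shift levels between genes. Symbols came from the GENCODE annotation of GRCm38 for 26495 of 27501 Ensembl identifiers, and all 9 genes were matched.

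The counts were tested with edgeR 4.0.16 in R 4.3.3 (limma 3.58.1) by the quasi-likelihood test, two-sided, with TMM scaling, filterByExpr at a minimum count of 10 and Benjamini-Hochberg adjustment over all genes tested, and a call is an adjusted p below 0.05. The 12 sorted libraries entered 1 fit, each sorted-presort comparison used its line's 8 libraries, and the difference of sorting effects between lines used all 24 nuclear libraries. Alternatives were other scalings, no filter, DESeq2 1.42.0, sex as a covariate, each sex alone, other sets of libraries and each library left out. An astrocyte and an oligodendrocyte library were also left out together, chosen after seeing the data. A block for the mouse was added then as well: the design text has presort and sorted RNA from the same mice, and the pairs were read from consecutive title numbers, which is an inference. Deviations from the group means correlated within pairs at 0.20 to 0.32 in the neuron line, 0.028 to 0.13 in the astrocyte line and -0.00075 to 0.17 in the oligodendrocyte line. Libraries of the same sex from different pairs correlated at 0.070 to 0.21, -0.069 to 0.0094 and -0.032 to 0.045 in these lines. Sorted astrocyte 8 correlated with presort 29, of the other sex, at 0.11, and with presort 7 of its pair at 0.054. These values do not establish the pairs. On simulated counts for neurons against astrocytes, over 12729 genes, 56.1% of the genes changed by 3 on the log2 scale were recovered and 8.33% of those changed by 1.5. For the neuron line, over 10329 genes, these shares were 100% and 44.9%. Counting error alone allows a gene with no count up to 1.13 to 19.7 CPM in sorted, 0.829 to 16.1 CPM in presort and 0.802 to 0.865 CPM in cytoplasmic libraries, taking 3 counts per library. No 2 replicates agreed within sampling noise. The 9 genes and all lists were chosen with earlier results of these data known, and genes of the lists were named as the 3 with the largest log2 fold change among those called, at a mean of at least 10 CPM, with exceptions stated. Some results are not reported here.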

Additional observations from a re-analysis of the deposited data

Results flagged for a closer look

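In 3 of 54 sets of 4 libraries, the highest or lowest library lay apart from the other 3 by more than Dixon's 95% critical value, which chance gives in about 1 of 20 sets. Cplx1 stood at 661 CPM in sorted oligodendrocyte 36, against 47.1 to 65.4 CPM in the other sorted oligodendrocyte libraries. It stood at 38.5 CPM in sorted astrocyte 8, against 15.8 to 19.7 CPM in the other sorted astrocyte libraries. Dnm1 stood at 1216 CPM in sorted neuron 2, against 336 to 486 CPM in the other sorted neuron libraries. Neuron 2 also had the highest sum of cerebellar granule cell markers of its group, at 23243 CPM against 9141 to 13843 CPM, and its part in the level of Dnm1 was not tested. Oligodendrocyte 36 was also the library with the fewest detected genes, and its part in the level of Cplx1 was not tested.

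The log2 fold change of sorted over presort nuclei differed between lines for 10 pairs of gene and lines, by edgeR's quasi-likelihood test of the difference. Neuron line minus astrocyte line, it was larger for Syt1 by 3.59 (adjusted p = 6.50e-07), for Syp by 3.10 (adjusted p = 4.58e-05), for Dnm1 by 2.34 (adjusted p = 0.00369), for Snap25 by 2.12 (adjusted p = 0.00948) and for Syn1 by 1.75 (adjusted p = 0.0359). Neuron line minus oligodendrocyte line, it was larger for Syt1 by 2.73 (adjusted p = 1.76e-05), for Syp by 2.08 (adjusted p = 0.00310) and for Snap25 by 1.80 (adjusted p = 0.0259). Astrocyte line minus oligodendrocyte line, the difference was -2.93 for Cplx1 (adjusted p = 0.0436) and -1.67 for Syn1 (adjusted p = 0.0485). These last values did not pass in 20 and 22 of the 24 fits that left out a single library, and the value for Cplx1 had its lowest size, -0.65, in those fits. The neuron minus astrocyte value for Syn1 did not pass in 18 of the 24 fits, and the neuron minus oligodendrocyte value for Snap25 in 4. With the mouse as a replicate block, the other 7 pairs passed and these did not: Syn1 at 1.74 (neuron minus astrocyte line, adjusted p = 0.0569), and Cplx1 at -1.46 and Syn1 at -1.71 (astrocyte minus oligodendrocyte line, adjusted p = 0.440 and 0.0672).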

How the results depend on the processing

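Across the alternatives, 2054 values of single genes kept their direction and their side of the threshold, 90 passed in addition, 142 no longer passed and 35 turned their sign. All genes called (main value first) were 2534 for neuron over astrocyte, but 46 in females, 4539 with only the 8 libraries compared and 4901 without astrocyte 30 and oligodendrocyte 36, and 3005 for neuron over oligodendrocyte, but 123, 1902 and 4847. For astrocyte over oligodendrocyte they were 2230, but 67 in females and 3408 without both libraries. They were 702 in the neuron line, but 1151 without a filter, 1166 with sex as a covariate and 127 in males, and 3193 in the astrocyte line, but 1528 in males. In the oligodendrocyte line they were 795, but 1216 without a filter, 1520 with DESeq2, 2151 in males, 0 in females by edgeR (694 at an unadjusted p below 0.05), 3065 in the fit of all 24 nuclear libraries and 2069 without both libraries, and for nuclei over cytoplasm 3901, but 6815 without a filter. Of the 9 genes, neuron over astrocyte called 5, but 1 in females and 8 with only the 8 libraries, and neuron over oligodendrocyte 4, but 1 in females and 7 in the fit of all 24. Astrocyte over oligodendrocyte called 1, but 2 in males, 0 in females, and 4 in the fit of all 24 or without both libraries. The neuron line called 1, but 3 with sex as a covariate, 0 in males and 2 in females, and the oligodendrocyte line 1, but 2 with library size alone or sex as a covariate, 3 with DESeq2, 5 in males or in the fit of all 24, 0 in females and 4 without both libraries, and the joint test of lines called 5, but 8 with DESeq2. Leaving out single libraries gave 1889 to 5096 genes and 4 to 8 of the 9 for neuron over astrocyte, 2324 to 4807 and 3 to 5 for neuron over oligodendrocyte, 1705 to 3568 and 0 to 4 for astrocyte over oligodendrocyte, 342 to 1051 and 0 to 3 in the neuron line, 1836 to 3670 and 5 to 6 in the astrocyte line, 267 to 2069 and 0 to 4 in the oligodendrocyte line, 3694 to 4539 and 6 to 7 for nuclei over cytoplasm, and 2231 to 3389 and 4 to 7 for the joint test. Signs turned for Syn1 over oligodendrocytes (-0.070 in females, -0.034 without both libraries, -0.035 to 0.47 leaving out single ones), for Cplx1 there in males (0.24), for Syn1 in the neuron line (0.052 without a filter, 0.47 in males, -0.36 to 0.12) and for Dnm1 there (0.13 without a filter and in males, 0.0065 in the fit of all 24, -0.62 to 0.16). Cplx1 in the neuron line spanned -0.44 to 0.014. In the oligodendrocyte line, Vamp2 turned to -0.16 with library size alone, Syn1 to 0.024 in males (-0.37 to 0.00032 leaving out single libraries) and Cplx1 to -0.58 in males and -0.49 without both libraries (-0.49 to 2.03). Between sorting effects, neuron minus oligodendrocyte line, Syn1 turned to -0.13 and Cplx1 to 0.16 without both libraries (-0.14 to 0.39 and -2.12 to 0.19), and Snap25 spanned -0.47 to 0.46 for astrocyte minus oligodendrocyte line. Syp in nuclei over cytoplasm turned to 0.39 with library size alone (-0.52 to 0.73). The causes were not tested. Library size alone moved the median log2 fold change of all genes to 0.23, 0.49 and 0.25 between sorted types, to -0.06, -0.27 and -0.52 in the neuron, astrocyte and oligodendrocyte lines and to 0.45 for nuclei over cytoplasm. With sorted and presort libraries paired by consecutive title numbers (a replicate block, chosen after seeing the data), the neuron line called 1450 genes and 3 of the 9, the astrocyte line 2973 and 5, the oligodendrocyte line 281 and 1, and the joint test of lines 2517 and 4. The block changed no call of the 9 genes other than those given beside the results. Depth limits the presort comparisons, where 11 of the 12 presort libraries hold between 147826 and 313720 counts, and cytoplasm rests on 2 libraries.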

Other observations

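Marker lists of other cell types stood as follows in the compartments and sorts. Of all 7728 genes tested in presort nuclei over cytoplasm, 20.6% were higher and 29.8% lower in nuclei. In presort nuclei over cytoplasm, 9 of the 12 endothelial markers passed the count filter. All 9 were higher in nuclei by edgeR's quasi-likelihood test, with a median log2 fold change of 4.64. The 12 summed to between 240.8 and 1647 CPM in presort nuclei, against 34.9 and 58.8 CPM in cytoplasm. With so little in cytoplasm, a marker could pass the filter only through its presort counts, so the 9 calls are no test of direction. Oligodendrocyte precursor markers were higher in nuclei for 5 of 6, with a median of 2.79, and astrocyte markers for 9 of 19, with 4 lower. Oligodendrocyte markers summed to 3893 to 6410 CPM in presort nuclei and 10348 to 10629 CPM in cytoplasm. They were lower in nuclei for 5 of 19 (26.3%), no more than the share of all genes, and higher for 1 (5.26%). Of 12 cerebellar granule cell markers, 5 of 11 tested were higher and 2 lower in nuclei.

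In the neuron line, marker lists of other cells were lower after the sort, where 5.10% of all 11024 genes were lower and 1.27% higher. Of these, 18 of 19 oligodendrocyte markers, 11 of 19 astrocyte markers, 5 of 6 oligodendrocyte precursor markers, 6 of 9 microglia markers and 3 of 4 endothelial markers were lower in sorted than in presort nuclei, and none was higher. Granule cell markers were higher for 3 of 11 there (6 with the mouse as a block). Sorted astrocyte nuclei held oligodendrocyte precursor markers at a sum of 2800 to 4050 CPM, against 799 to 937 CPM in presort nuclei of the same line. Of 6 markers tested there, 2 were higher and 2 lower, beside 13.7% and 15.2% of all genes.

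Between the glial types, Syt10, a synaptotagmin related to Syt1, averaged 28.6 ± 11.8 CPM in sorted astrocyte nuclei and 2.40 ± 2.30 CPM in sorted oligodendrocyte nuclei (SD, n = 4 each), a log2 fold change of 3.57 ± 0.73 (adjusted p = 0.00212). Sv2a, a vesicle glycoprotein, averaged 56.9 ± 21.3 CPM in sorted astrocyte nuclei and 409.6 ± 39.0 CPM in sorted oligodendrocyte nuclei (SD, n = 4 each), a log2 fold change of -2.81 ± 0.44 (adjusted p = 0.000252). Sh3gl3, an endophilin, averaged 1.03 ± 1.48 CPM in sorted astrocyte nuclei and 59.1 ± 5.66 CPM in sorted oligodendrocyte nuclei (SD, n = 4 each), a log2 fold change of -5.43 ± 0.85 (adjusted p = 0.000245). In oligodendrocyte 36 Sv2a stood at 466 CPM and Sh3gl3 at 52.6 CPM, beside 377 to 405 and 56.2 to 64.8 CPM in the other 3 libraries.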
